A study of Gallus gallus with 6 samples.

Results

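Pyruvate made by glycolysis enters mitochondria through the mitochondrial pyruvate carrier and is turned into acetyl-CoA by the pyruvate dehydrogenase (PDH) complex. The complex is switched off when PDH kinases phosphorylate its alpha subunit and switched on again when PDH phosphatases remove the phosphate, so that kinases and phosphatases help to set how much pyruvate a muscle burns instead of passing on as lactate. In mammalian muscle, PDK4 is known as the kinase that is induced in fasting and when fatty acids are the main fuel. Transcripts of this step were compared between soleus (SOL), a leg muscle, and pectoralis major (PEM), the breast muscle, of untreated broiler chickens aged 180 days, with 3 RNA-seq libraries per muscle. Per the series description, both muscles were taken right after slaughter, and the study asked which factors go with their contrasting fibre types; no sex is given, and the breed is given only as broilers.

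The genes were found as rows of the deposited FPKM table (fragments normalized by the authors to gene length and library total) whose symbol is one of 10 listed symbols. Of these, 8 were present among 18239 genes: the carrier subunit MPC2, the complex subunits PDHB, DLAT and PDHX, the kinases PDK3 and PDK4, and the phosphatases PDP1 and PDP2. The other 2, MPC1 and PDHA1, were not symbols of the table, but RefSeq gives them as synonyms of the genes that the table calls MPC1L (gene number 428592) and PDHA2 (gene number 418610). Those rows are reported beside the 8 under the names in the table; in mammals the name PDHA2 belongs to a testis form, and the table itself describes this row as an alpha 2 subunit. A further 3 genes of the same system were in the table and are given for comparison: the kinase PDK1, the dihydrolipoamide dehydrogenase DLD, and PDPR, the regulatory subunit of the phosphatase. No row was found under the symbol PDK2, so the kinase sums, shares and ratios below do not include it. Of the 8, 6 carry the annotation term mitochondrial matrix, and 3 (DLAT, PDHB and PDHX) are placed by the table in the pathways of pyruvate metabolism, glycolysis and the citrate cycle.

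The smallest steps between FPKM values gave the depth, which was 38534335 to 39079981 fragments for the soleus libraries and 36309597 to 37123092 for those of pectoralis major (n = 3 each). The share of mitochondrially encoded genes was 19.6 to 23.7% of fragments in the soleus libraries, against 7.03 to 8.66% in pectoralis major. The labels fitted the fibre markers: the summed FPKM of 7 slow fibre markers was 13230 to 17380 in soleus and 31.9 to 137.2 in pectoralis major, and that of 4 fast fibre markers was 10320 to 13170 in soleus and 39800 to 44530 in pectoralis major. Whether a muscle's 3 libraries stand for 3 birds is not stated, and p-values therefore cover only the spread seen among them, which may be technical. These are bulk tissue samples, in which fewer cells of a type and less RNA per cell cannot be told apart.

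Soleus had far more PDK4 transcript and more transcript of MPC2, DLAT, PDP2 and, by a small margin, PDHB than pectoralis major, while PDP1 was lower in soleus. All 8 genes passed the filter on low values (FPKM 1 or more in 3 or more of the 6 libraries), PDK4 through its soleus libraries and 1 pectoralis major library. In the test (limma on log2(FPKM + 1), Benjamini-Hochberg adjusted over 9616 genes, threshold 0.05), 5 of the 8 were higher in soleus, 1 was lower and 2, PDHX and PDK3, did not pass. Across all tested genes, 40.0% were called higher and 17.4% lower in soleus, 57.3% in all. The median log2 difference (soleus minus pectoralis major, here and throughout) was 0.50 for the 8 genes and 0.26 for all tested genes. The median over all genes depended on the filter, at 0.09 for genes with a mean FPKM of at least 5 and 0.06 with no filter. The values of the muscles did not overlap for 7 of the 8, against 64.9% of all tested genes. As deposited, at least 2-fold differences among the called genes were those of PDK4, MPC2 and PDP1. Of all tested genes, 9.44% were called at least 2-fold higher and 5.50% at least 2-fold lower. MPC2 was near the 2-fold line, with a log2 difference of 1.04 as deposited. It was 0.66 after median-ratio scaling, 0.83 after quantile normalization and 1.27 when totals excluded mitochondrially encoded genes. In the last setting PDP1 was at -0.84. The split of calls over all genes depended on scaling: 69.7% of calls were higher in soleus as deposited, 41.7% after median-ratio scaling, 49.5% after quantile normalization, 82.0% when totals excluded mitochondrially encoded genes, and 33.6% relative to the tricarboxylic acid cycle genes.

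**Figure D1:**
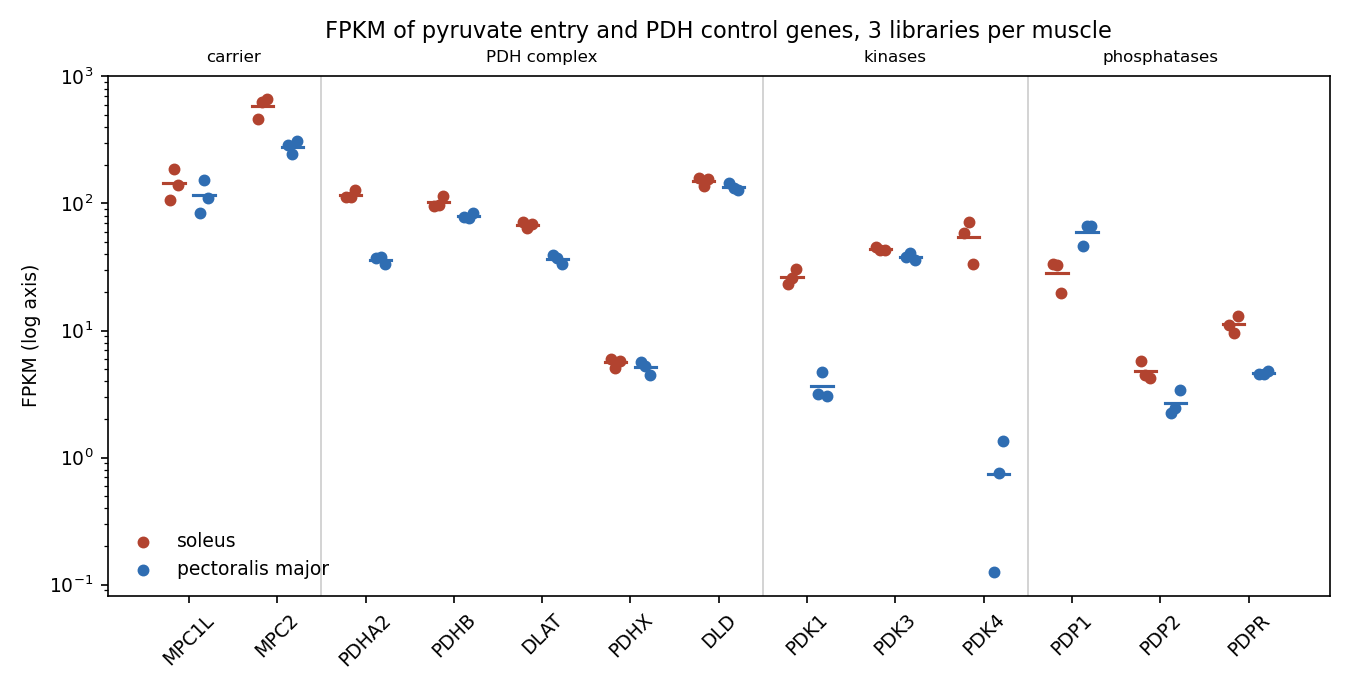
FPKM (log axis) of each gene in every library, grouped by role; points are libraries, soleus left and pectoralis major right of each gene, and bars are arithmetic means of 3 libraries. PDK4 sits between 33.4 and 71.2 FPKM in soleus and between 0.125 and 1.34 in pectoralis major, and PDP1 is the gene whose soleus points all lie below those of pectoralis major.

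The carrier in mammals is built from MPC1 and MPC2 subunits in the inner mitochondrial membrane. MPC2 (gene number 768451) had 464.8, 627.6 and 659.4 FPKM in soleus libraries 1 to 3, against 288.1, 246.0 and 307.9 FPKM in pectoralis major libraries 1 to 3. Every soleus library stood above every pectoralis major library, and the log2 difference was 1.04 ± 0.16 (SE, limma adjusted p = 0.000997). By mean FPKM, MPC2 was the most abundant of the 13 genes in both muscles. That lead rests on the division by gene length, 679 bases for MPC2 and 2540 for DLD. In fragments, MPC2 had 7102, 6194 and 7762 in pectoralis major, below the 13333, 12492 and 12039 of DLD. In soleus library 1, MPC2 had 12161 fragments and DLD 15479, and MPC2 was above DLD in soleus libraries 2 and 3. MPC1L had 107.4, 187.0 and 140.7 FPKM in soleus and 83.7, 152.4 and 110.5 FPKM in pectoralis major. These ranges overlap, and the log2 difference of 0.33 ± 0.25 did not pass (limma adjusted p = 0.288). Same-numbered libraries moved together in this gene, with soleus at 1.28, 1.23 and 1.27 times pectoralis major in numbers 1 to 3. With the replicate number as a block, MPC1L passed as higher in soleus (limma adjusted p = 0.0248), though its difference was -0.05 under median-ratio scaling. The ratio of MPC2 to MPC1L was 4.33, 3.36 and 4.69 in soleus and 3.44, 1.61 and 2.79 in pectoralis major, an overlap of the muscles (two-sided exact permutation p = 0.2).

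**Figure D2:**
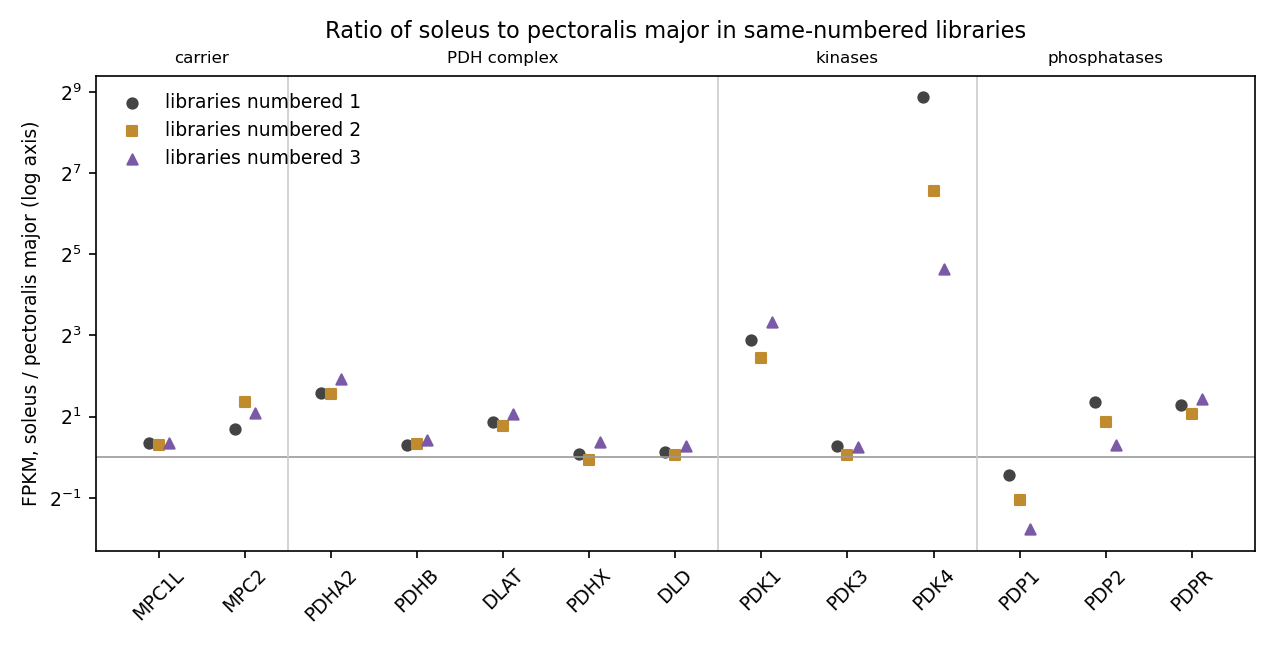
FPKM in soleus divided by FPKM in the pectoralis major library of the same number (log axis) for each gene; the 3 symbols are library numbers, and the grey line marks equal values. The MPC1L ratios lie at 1.23 to 1.28 and the DLAT ratios at 1.72 to 2.08, while those of PDK4 spread over 24.9 to 465.5.

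In the complex itself, pyruvate is decarboxylated by a dehydrogenase of alpha and beta chains, the acetyl group is passed on by the lipoylated core enzyme DLAT, and PDHX anchors DLD, which restores the lipoyl groups. DLAT (gene number 419796) had 71.6, 63.6 and 69.5 FPKM in soleus and 39.0, 37.0 and 33.3 FPKM in pectoralis major. Its groups stood clear of each other, with a log2 difference of 0.89 ± 0.12 (SE, limma adjusted p = 0.000513). PDHB, the beta chain (gene number 416066), had 96.3, 97.5 and 113.9 FPKM in soleus and 78.3, 77.4 and 84.1 FPKM in pectoralis major. The muscles did not overlap and PDHB passed by a small margin (log2 difference 0.35 ± 0.12, limma adjusted p = 0.0346). That call was lost on leaving out any 1 of the 6 libraries (adjusted p of 0.0503 to 0.132), and the difference was -0.03 under median-ratio scaling. PDHX (gene number 423154) had 5.96, 5.07 and 5.80 FPKM in soleus and 5.64, 5.30 and 4.49 FPKM in pectoralis major, overlapping ranges with a log2 difference of 0.11 ± 0.13 (limma adjusted p = 0.515).

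The alpha chain, which carries the sites that the kinases phosphorylate, had the largest log2 difference of the 5 subunits. Listed as PDHA2, it had 111.5, 111.5 and 128.2 FPKM in soleus and 36.9, 37.6 and 33.6 FPKM in pectoralis major. The soleus libraries lay close together and far above pectoralis major (ratio of means 3.25, log2 difference 1.67 ± 0.12, limma adjusted p = 1.93e-05). DLD, which also serves the 2-oxoglutarate and branched-chain complexes, had 149.9 ± 11.4 FPKM in soleus and 135.0 ± 8.69 FPKM in pectoralis major (SD, n = 3 each) and did not pass (limma adjusted p = 0.309). Scaled to total fragments without the mitochondrially encoded ones, DLD did pass as higher (adjusted p = 0.0249).

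Ratios between subunits within a library do not depend on how libraries are scaled to each other. PDHB to PDHA2 was 0.864, 0.874 and 0.888 in soleus and 2.12, 2.06 and 2.51 in pectoralis major. By FPKM, the alpha chain was thus slightly above the beta chain in soleus and below it in pectoralis major. The order in soleus rests on the division by gene length, 2602 bases for PDHB and 1962 for PDHA2. In whole fragments, PDHB had 9657, 9910 and 11570 in soleus libraries 1 to 3, above the 8430, 8553 and 9821 of PDHA2. PDHX to DLAT was 0.0832, 0.0798 and 0.0834 in soleus and 0.145, 0.143 and 0.135 in pectoralis major. On the log2 scale these ratios were lower in soleus by 1.34 and 0.78. Over 8 ratios computed in all, 7 did not overlap between muscles. Of all tested single genes 64.9% did not overlap, and the share over other gene pairs was not computed. Each of the 7 had a two-sided exact permutation p of 0.1, the smallest that 3 against 3 libraries allow. Their Benjamini-Hochberg adjusted p was 0.114. With this test, no ratio can pass the 0.05 threshold at 3 libraries per muscle.

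**Figure D3:**
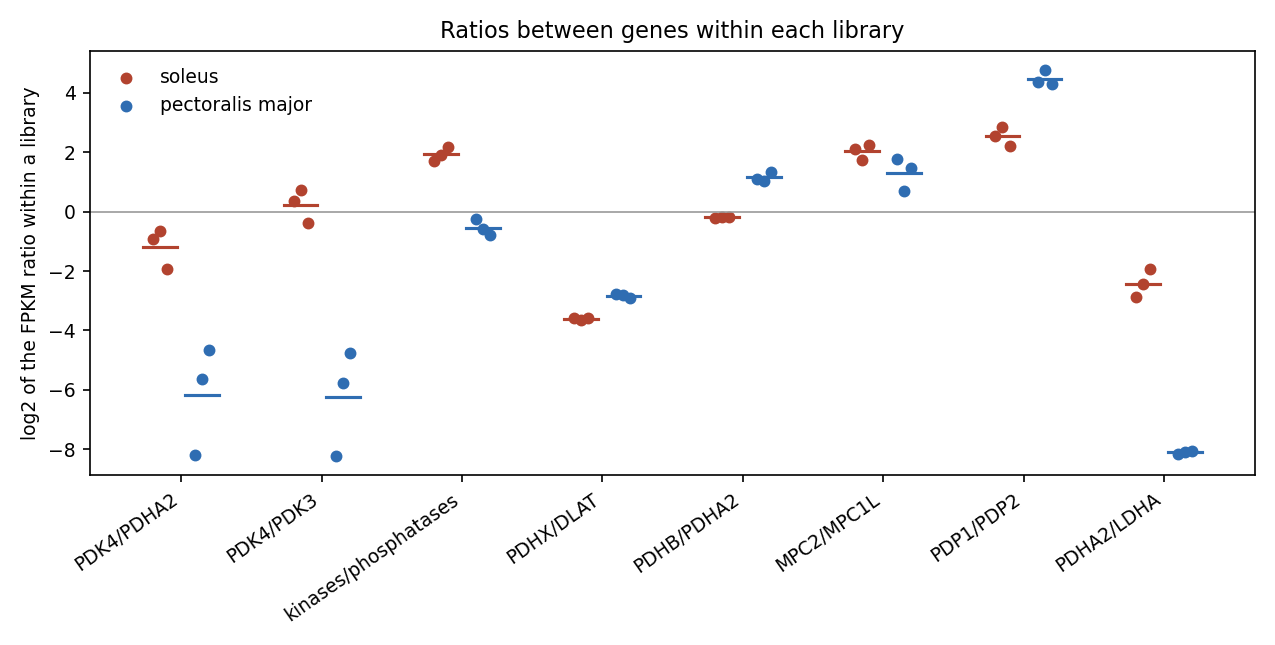
Log2 of the FPKM ratio within each library for 8 gene pairs, soleus left and pectoralis major right; points are libraries and bars are means of the 3 log2 ratios. Only MPC2/MPC1L overlaps between the muscles; the PDHB/PDHA2 points lie below 0 in soleus and above 0 in pectoralis major.

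The kinases parted into one gene of like level in both muscles and 2 that were much higher in soleus. PDK4 (gene number 420570) had 58.4, 71.2 and 33.4 FPKM in soleus and 0.125, 0.758 and 1.34 FPKM in pectoralis major. In fragments these were 8399, 10391 and 4874 in soleus, against 17, 105 and 186 in pectoralis major, so the level in pectoralis major library 1 rests on few fragments. All soleus libraries stood far above all pectoralis major libraries. The log2 difference on log2(FPKM + 1) was 4.99 ± 0.32 (SE, limma adjusted p = 1.04e-05), the 27th largest absolute difference among the 9616 genes tested. That scale understates the change of a gene this low in pectoralis major: the ratio of the mean FPKM was 73.25, and limma-voom on whole fragments gave a log2 difference of 6.66. Relative to its mean, PDK4 varied within each muscle more than PDK1 and PDK3 did, with a mean of 54.3 ± 19.2 FPKM in soleus and 0.742 ± 0.608 FPKM in pectoralis major (SD, n = 3 each).

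PDK3 (gene number 418595) had 45.5, 43.0 and 43.1 FPKM in soleus and 37.6, 41.0 and 36.0 FPKM in pectoralis major. Its groups did not overlap, but the log2 difference of 0.20 ± 0.12 did not pass (limma adjusted p = 0.175). This difference lay below the median of all tested genes (0.26) and above that of genes with a mean FPKM of at least 5 (0.09). PDK3 was called higher in soleus when totals excluded mitochondrially encoded genes (adjusted p = 0.0115), and its difference was -0.18 under median-ratio scaling. PDK1, a kinase known in mammals as a target of the hypoxia response, had 23.3, 25.8 and 30.6 FPKM in soleus and 3.16, 4.73 and 3.04 FPKM in pectoralis major. It was higher in every soleus library (log2 difference 2.58 ± 0.18, limma adjusted p = 1.34e-05).

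The mix of kinase transcripts differed between the muscles. PDK3 made up 35.6 ± 4.76% of the summed FPKM of the 3 kinases in soleus and 89.8 ± 1.97% in pectoralis major (SD, n = 3 each). PDK4 made up 42.7 ± 10.2% in soleus and 1.75 ± 1.51% in pectoralis major, and PDK1 21.8 ± 5.89% and 8.48 ± 1.47%, soleus first. The ratio of PDK4 to PDK3 was 1.28, 1.66 and 0.776 in soleus and 0.00333, 0.0185 and 0.0373 in pectoralis major. By FPKM, PDK4 was thus the leading kinase transcript in soleus libraries 1 and 2, PDK3 was in soleus library 3, and PDK3 led in all pectoralis major libraries. The lead of PDK4 in soleus rests on the division by gene length, 3734 bases for PDK4 and 6810 for PDK3. In whole fragments, PDK3 had 11948, 11442 and 11459 in soleus libraries 1 to 3, above the 8399, 10391 and 4874 of PDK4. Set against its substrate, PDK4 to PDHA2 was 0.524, 0.638 and 0.261 in soleus and 0.00340, 0.0202 and 0.0400 in pectoralis major.

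**Figure D4:**
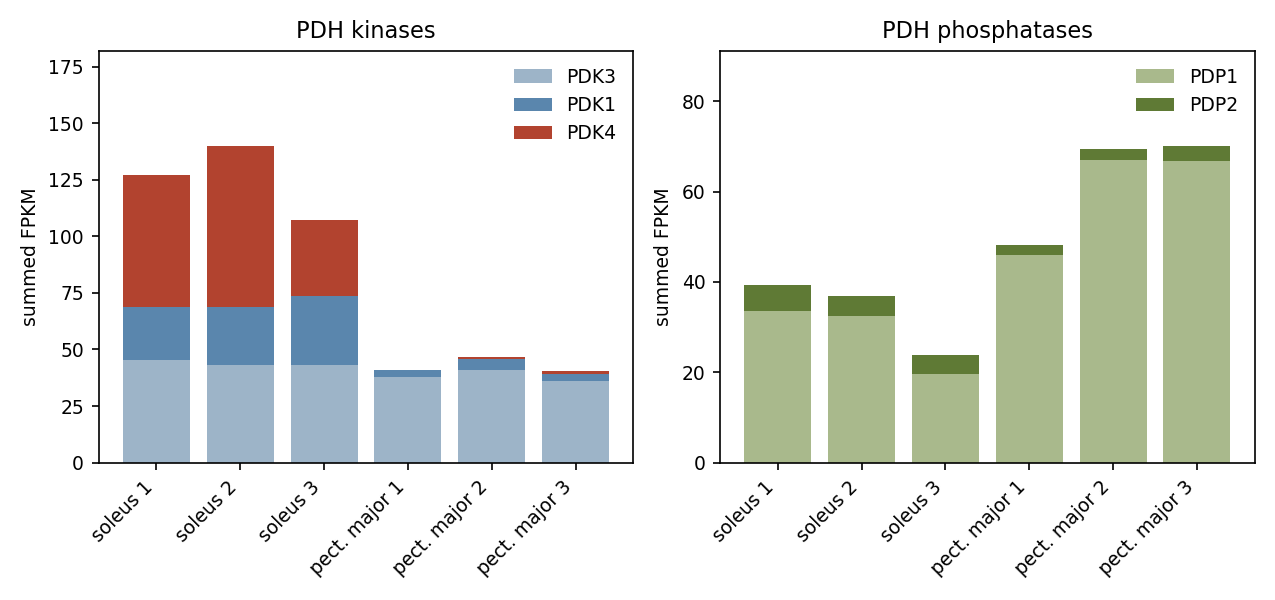
Summed FPKM of the PDH kinases PDK3, PDK1 and PDK4 (left) and of the catalytic phosphatase subunits PDP1 and PDP2 (right) in each library, stacked by gene. The kinase sum is 107.1 to 140.0 in soleus and 40.4 to 46.5 in pectoralis major, and the phosphatase sum is 23.8 to 39.4 in soleus and 48.1 to 70.1 in pectoralis major.

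The catalytic phosphatases moved in opposite directions. PDP1, known in mammals as the form stimulated by calcium, had 33.7, 32.5 and 19.6 FPKM in soleus and 45.9, 67.0 and 66.7 FPKM in pectoralis major (gene number 428372). No library of one muscle reached the other, although soleus library 3 and pectoralis major library 1 were low for their muscle. Its log2 difference was -1.06 ± 0.23 (SE, limma adjusted p = 0.00498), and -0.82 to -1.24 on leaving out 1 library. PDP2, the form that does not need calcium in mammals, had 5.73, 4.47 and 4.22 FPKM in soleus and 2.24, 2.46 and 3.41 FPKM in pectoralis major (gene number 427550). The soleus libraries were all above the pectoralis major libraries, and PDP2 passed (log2 difference 0.65 ± 0.17, limma adjusted p = 0.00964). It did not pass under median-ratio scaling (adjusted p = 0.0706) or quantile normalization (adjusted p = 0.0592), and a filter on mean FPKM of 5 removed it. PDPR had 11.1, 9.59 and 13.0 FPKM in soleus and 4.59, 4.58 and 4.77 FPKM in pectoralis major, a log2 difference of 1.11 ± 0.14 (limma adjusted p = 0.000342).

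PDP1 remained the larger of the catalytic phosphatase transcripts in both muscles, at 85.2 ± 2.83% of their sum in soleus and 95.6 ± 0.715% in pectoralis major (SD, n = 3 each). The ratio of PDP1 to PDP2 was 5.87, 7.28 and 4.64 in soleus and 20.4, 27.3 and 19.6 in pectoralis major. Summed over the genes measured, kinase to phosphatase FPKM was 3.23, 3.78 and 4.50 in soleus and 0.851, 0.670 and 0.575 in pectoralis major. This log2 ratio was 2.46 higher in soleus, with no overlap. It compares transcripts, and neither protein nor phosphorylation was measured.

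**Figure D5:**
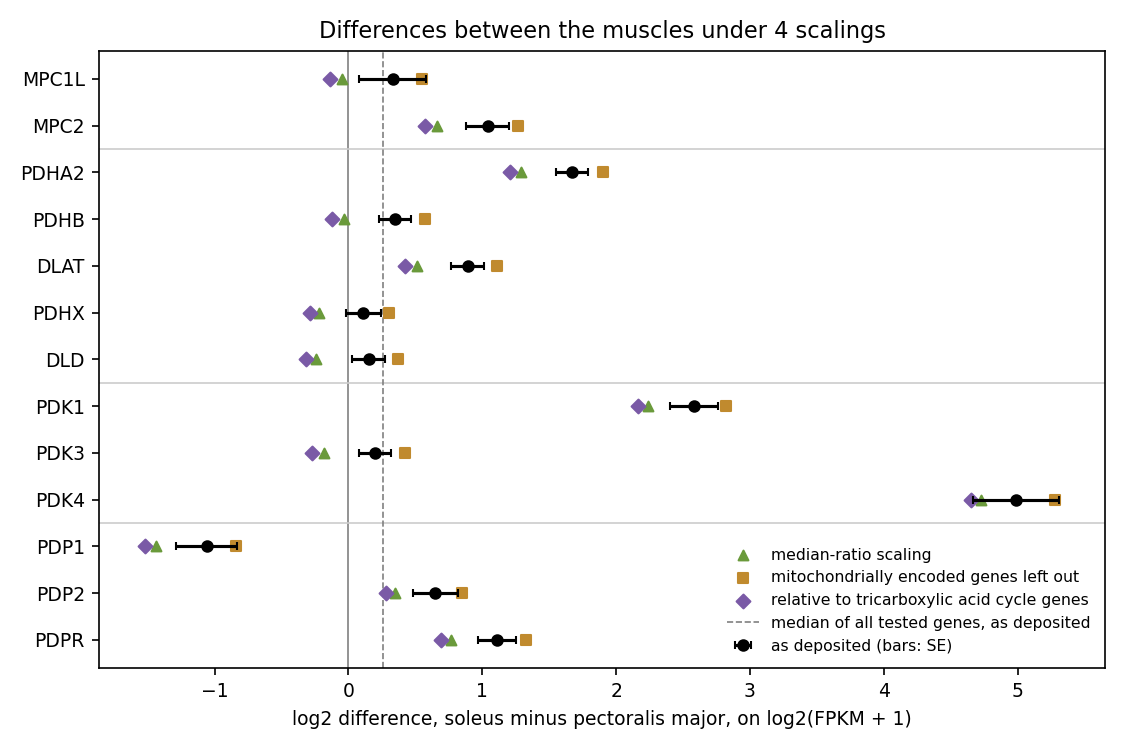
Log2 difference (soleus minus pectoralis major, on log2(FPKM + 1)) of each gene as deposited (circles, bars are SE) and under 3 other scalings; the dashed line is the median of all tested genes as deposited. PDK4, PDK1, PDHA2, MPC2, DLAT, PDP2 and PDPR lie above 0 and PDP1 below 0 under all 4, while PDHB, PDHX, PDK3, MPC1L and DLD lie on both sides of 0.

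Ordered by mean FPKM in soleus, MPC2 was followed by DLD, MPC1L, PDHA2 and PDHB, then DLAT, PDK4 and PDK3. After these came PDP1 and PDK1, then PDPR, and last PDHX and PDP2. Within each of these 5 runs after MPC2, neighbours overlapped between libraries, and the last gene of a run did not overlap the first of the next. In pectoralis major the order was MPC2, then DLD, MPC1L and PDHB, each overlapping the next, then PDP1, then PDK3, DLAT and PDHA2, which overlapped, then PDHX, PDPR, PDK1 and PDP2, each overlapping the next, and PDK4 last and clear of the rest. By mean FPKM, PDP1 thus ranked below PDHA2, PDK4 and PDK3 in soleus, and above the alpha chain and all 3 kinases in pectoralis major. The soleus ranks depend on gene length, 6999 bases for PDP1, 1962 for PDHA2 and 3734 for PDK4. In whole fragments, PDP1 had 9080, 8898 and 5351 in soleus libraries 1 to 3. It was above PDHA2 (8430, 8553 and 9821) in libraries 1 and 2, and above PDK4 (8399, 10391 and 4874) in libraries 1 and 3.

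Set against the 14 tricarboxylic acid cycle genes of each library, a scaling chosen after the data were seen, 3 of the 8 genes stayed higher in soleus: PDK4 (log2 difference 4.65), MPC2 (0.57) and DLAT (0.42, limma adjusted p = 0.0227). PDP1 stayed lower, at -1.52 (limma adjusted p = 0.00108). PDHA2 (1.21), PDK1 (2.16) and PDPR (0.69) also passed as higher on this scale. PDHB (-0.12), PDHX (-0.29), PDK3 (-0.27), MPC1L (-0.14), DLD (-0.32) and PDP2 (0.28) did not pass. The geometric mean of these cycle genes was 135.3 to 142.7 FPKM in soleus and 95.7 to 106.2 FPKM in pectoralis major.

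Genes around the complex gave a mixed picture. The list counts here and below stand beside 40.0% of all tested genes called higher and 17.4% called lower in soleus. Of 14 genes of lipoate and thiamine supply tested, 2 rose in soleus and 2 fell (median 0.06). LIPT2, which starts lipoylation of mitochondrial proteins, had 13.0, 13.4 and 9.08 FPKM in soleus and 39.6, 32.7 and 40.6 FPKM in pectoralis major, a log2 difference of -1.60 ± 0.17 (limma adjusted p = 0.000148). The thiamine transporter SLC19A2 was higher in soleus (1.23), with 2.06 ± 0.772 FPKM in soleus and 0.283 ± 0.145 FPKM in pectoralis major (SD, n = 3 each). It passed the filter through soleus alone, and limma-voom on whole fragments gave 2.93. NFU1, which delivers iron-sulfur clusters to lipoate synthase, was higher as deposited (0.59) and not called after median-ratio scaling (0.22, limma adjusted p = 0.227) or relative to the cycle genes (0.14, adjusted p = 0.468). BOLA3, the most abundant of this list, had 48.2 ± 1.66 and 46.7 ± 1.92 FPKM in soleus and pectoralis major (SD, n = 3 each) and did not pass as deposited. It was called lower in soleus after median-ratio scaling (-0.34, limma adjusted p = 0.0498) and relative to the cycle genes (-0.42, 0.0268).

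Other routes of pyruvate differed widely. Of 10 genes tested, 5 were higher in soleus and 3 lower (median 0.30). LDHA, the lactate dehydrogenase form of fast muscle, had 641.4 ± 169.1 FPKM in soleus and 9906 ± 893.3 FPKM in pectoralis major, and LDHB, the heart form, had 930.7 ± 79.7 and 31.8 ± 1.86 FPKM, soleus first (SD, n = 3 each). Pyruvate kinase, listed as PKLR with PKM as a RefSeq synonym (-3.12), and the malic enzyme ME1 (-2.07) were also lower in soleus, and the monocarboxylate transporter SLC16A7 (2.81) and the alanine transaminase GPT2 (0.88) were higher. As with PDK4, low values in pectoralis major compress the differences of SLC16A7 and GPT2. SLC16A7 averaged 6.54 FPKM in soleus and 0.0587 ± 0.0122 FPKM in pectoralis major (SD, n = 3), and passed the filter through soleus alone. On whole fragments limma-voom gave 6.78 for SLC16A7 and 1.53 for GPT2. The ratio of PDHA2 to LDHA was 0.135, 0.183 and 0.262 in soleus and 0.00352, 0.00363 and 0.00378 in pectoralis major, which is 5.68 higher in soleus on the log2 scale and without overlap.

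Of 9 genes tested from the related 2-oxoacid dehydrogenase complexes, their kinase and phosphatase, and GCDH, a glutaryl-CoA dehydrogenase that is no part of such a complex, 5 were higher and 1 lower (median 0.54). OGDH (1.00), BCKDHA (0.88) and GCDH (0.69) were higher, GCDH with no call after median-ratio scaling (0.33, limma adjusted p = 0.108) or relative to the cycle genes (0.25, adjusted p = 0.169). PPM1K, the phosphatase that activates the branched-chain complex, was lower (-0.73), with overlapping muscles and a call that was lost when soleus library 1 (limma adjusted p = 0.0776), soleus library 3 (0.134), pectoralis major library 2 (0.0952) or pectoralis major library 3 (0.132) was left out. PPM1K was also not called when totals excluded mitochondrially encoded genes (limma adjusted p = 0.0976) or with no filter (0.115). Of 14 cycle genes, 7 were higher and 0 lower as deposited (median 0.34), with IDH2 (1.96) and CS (0.91) among them. MDH2, the most abundant, had 634.2 ± 26.3 FPKM in soleus and 663.6 ± 30.6 FPKM in pectoralis major (SD, n = 3 each) and did not pass (-0.07). It was called lower after median-ratio scaling (-0.45, limma adjusted p = 0.0221), after quantile normalization (-0.35, 0.0333) and relative to the cycle genes (-0.54, 0.00654). MDH2 is itself 1 of the 14 cycle genes that set the last of these scales. Of 9 genes of acetyl-CoA export and acylcarnitines, 7 were higher and 0 lower (median 0.85), led by ACACB (2.60), which makes the malonyl-CoA that restrains fatty acid entry, ACSS2 (2.29) and ACAT1 (1.46). ACACB had 7.39 ± 3.61 FPKM in soleus and 0.299 ± 0.0184 FPKM in pectoralis major (SD, n = 3 each), so it passed the filter through soleus alone, and limma-voom on whole fragments gave 4.50.

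Calcium uptake into mitochondria was included because calcium stimulates PDP1 in mammals. Of 10 genes tested, 3 were higher in soleus and 2 lower (median 0.26). LETM1 (0.76), MICU3 (0.61) and MCUR1 (0.58) were higher, and VDAC1 (-0.95) and the uniporter pore MCU (-0.49) were lower. MCU did not pass without soleus library 1 (limma adjusted p = 0.0618) or pectoralis major library 2 (0.0511), and MICU3 did not pass without soleus library 1 (0.0562). Scaling also mattered: MICU3 (limma adjusted p = 0.159 and 0.0675) and MCUR1 (0.0735 and 0.185) were not called after median-ratio scaling and after quantile normalization. Relative to the cycle genes, LETM1 (0.0876), MICU3 (0.403) and MCUR1 (0.172) were not called, and MCU was not when totals excluded mitochondrially encoded genes (0.0948). SMDT1, the most abundant of this list, had 103.0 ± 22.9 FPKM in soleus and 85.9 ± 18.6 FPKM in pectoralis major (SD, n = 3 each) and did not pass as deposited. It was called higher in soleus when totals excluded mitochondrially encoded genes (0.48, limma adjusted p = 0.0484).

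Among regulators known to act on PDK4 in mammals, 10 of 14 tested were higher in soleus and 1 was lower (median 0.76). Of all tested genes, 40.0% were called higher and 17.4% lower. Whether these regulators act on PDK4 in these muscles was not tested. PPARD, the fatty acid receptor of muscle, had 6.94, 7.08 and 8.55 FPKM in soleus and 2.68, 2.95 and 2.68 FPKM in pectoralis major (log2 difference 1.17 ± 0.13, limma adjusted p = 0.000186). KLF15 (1.27) and NR4A3 (2.14) were also higher. NR4A3 was uneven, with 15.8, 6.59 and 47.5 FPKM in soleus and 4.06, 4.29 and 1.67 FPKM in pectoralis major, so that leaving out soleus library 3 gave a difference of 1.44 and leaving out soleus library 2 gave 2.78; with no filter it was not called (limma adjusted p = 0.0616). FOXO3 went the other way, with 5.32, 5.64 and 4.99 FPKM in soleus and 8.69, 11.0 and 10.8 FPKM in pectoralis major (log2 difference -0.82 ± 0.14, limma adjusted p = 0.00139).

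Adipocyte, endothelial, smooth muscle and leukocyte markers moved in the direction of PDK4 as deposited, and fibroblast and tendon markers did so only in part. All 6 adipocyte markers tested of 7 were higher in soleus, and their summed level was 337.7, 409.9 and 418.2 FPKM in soleus libraries 1 to 3 and 88.3, 90.8 and 92.4 FPKM in pectoralis major libraries 1 to 3. PLIN1 (2.88), CIDEC (2.78) and LPL (2.42) differed most among them, and PPARG is on both this list and that of the regulators. All 7 endothelial markers (summed 157.7 to 192.7 FPKM in soleus and 79.3 to 95.9 in pectoralis major), all 5 smooth muscle markers (303.8 to 433.6 and 143.6 to 216.1, soleus first) and all 7 leukocyte markers (992.9 to 1100 and 512.3 to 653.0, soleus first) were higher in soleus. Of 7 fibroblast and tendon markers, 4 were higher and 0 lower, with overlapping sums of 222.5 to 334.5 FPKM in soleus and 169.5 to 357.0 in pectoralis major. Among the 4, SCX passed the filter through soleus alone, with means of 2.05 FPKM in soleus and 0.0404 FPKM in pectoralis major. The call of DCN did not hold with every library left out in turn (limma adjusted p of 0.0172 to 0.104). No marker of these lists was at 0 in all libraries. Their part in the differences of PDK4 and the other genes was not tested.

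By Pearson's r over the 6 libraries on log2(FPKM + 1), the tested genes most like PDK4 were UACA (0.999), DHRS7B (0.998) and TMEM108 (0.998). Those most like MPC2 were LMAN2 (0.997), TAP1 (0.993) and VCPKMT (0.993). The closest to PDP1 were SGF29 (0.989), FAM192A (0.989) and DIMT1 (0.988). An r of at least 0.99 was reached by 95 tested genes for PDK4, 8 for MPC2 and 0 for PDP1. These values are a description: the 6 points form 2 muscles, and a gene that differs between them tends to score high.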

How the data were processed

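RNA-seq of 3 soleus and 3 pectoralis major libraries was used as 1 table of FPKM computed and deposited by the authors. HISAT2, HTSeq, Cufflinks and R 3.2.0 and the build GRCg6a are named in the submitters' processing notes; whether counting used strand is not given in the sources used here. Gene numbers were matched to RefSeq (GRCg7b) for synonyms; all 18239 matched, and no coordinates are given. Whole fragments, recovered from the steps of the FPKM values, gave 100.0% of the 94897 values above 0 (relative tolerance 6e-14) and the library totals.

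The main test was limma 3.58.1 (two-sided, with a trended variance, in R 4.3.3), applied to log2(FPKM + 1) of genes that reached an FPKM of 1 in 3 or more libraries, with Benjamini-Hochberg adjustment over all tested genes; ratios within a library had exact permutation tests (scipy 1.17.1). Scripts were tested on simulated data. Alternatives covered scaling, pseudocount, filters, limma-voom, a replicate block and leaving out each library. Deviations of same-numbered libraries from their muscle's mean correlated (Pearson's r 0.398, 0.445 and 0.367 for numbers 1 to 3, across genes). Differently numbered ones had negative r, which taking deviations from the mean forces on balance once same-numbered r is positive. The numbers may thus pair the samples, but this comes from the data, not from the labels. The main test and the permutation tests did not use the pairing, and only the replicate block alternative did.

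The members and gene lists were chosen with earlier results of these data known. Named are all members and the other PDH genes, per list up to 3 called genes of largest difference in each direction and the most abundant gene, and the 3 genes most like each member called at least 2-fold; some of these are given only in counts or are not reported here. No sequences are shown.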

Additional observations from a re-analysis of the deposited data

How the results depend on the processing

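PDK4, MPC2 and DLAT passed as higher and PDP1 as lower in soleus under all alternatives run, and so did PDHA2, PDK1 and PDPR as higher. Of the 8 genes, 5 were higher as deposited 3 under median-ratio scaling and relative to the tricarboxylic acid cycle genes, 4 under quantile normalization, and 6 when totals excluded mitochondrially encoded genes; 4 were higher with each library left out in turn, and 1 was lower throughout. Differences changed sign under median-ratio scaling and relative to the cycle genes, in that order, for PDHB (-0.03 and -0.12), PDHX (-0.22 and -0.29), PDK3 (-0.18 and -0.27), MPC1L (-0.05 and -0.14), DLD (-0.24 and -0.32), BOLA3 (-0.34 and -0.42), SMDT1 (-0.13 and -0.21) and LMAN2 (-0.06 and -0.14). They also did for PDHX under quantile normalization (-0.13), for VCPKMT relative to the cycle genes (-0.03) and for MDH2 when totals excluded mitochondrially encoded genes (0.16); the cause was not tested. Over all genes, the 3844 higher calls became 2026 under median-ratio scaling, 2244 under quantile normalization, 1492 relative to the cycle genes and 1639 for mean FPKM of 5 or more, where fewer genes are tested. They became 5261, with 1157 lower calls, when totals excluded mitochondrially encoded genes. The 1670 lower calls became 2837 under median-ratio scaling and 2944 relative to the cycle genes. The replicate block (higher calls 4207, lower calls 1873) changed the call of MPC1L (adjusted p = 0.0248) and no other call of a named gene. No ratio within a library changed direction with a pseudocount of 0.1 or on leaving out a library. For the ratios without overlap, leaving out a library could not reverse the direction. Scaling between libraries and the replicate block cannot change these differences. The low fragment number of PDK4 in pectoralis major leaves the size of its fold change imprecise.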
